A study of Mus musculus with 9 samples.

Results

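The transcripts described here encode 10 enzymes that make nicotinamide adenine dinucleotide (NAD) or handle its kynurenine precursors: Afmid, Kmo, Kynu, Haao, Acmsd, Qprt, Nampt, Naprt, Nmnat1 and Nadsyn1. They were chosen by symbol, and all 10 of the 10 listed symbols were among the 13081 genes in the table. Kidneys came from wild-type C57BL/6 mice aged 3 months (4 young libraries) or 16 months (5 old libraries), and the comparison asks what normal ageing does to the kidney transcriptome. Neither group carried an engineered allele or had received a treatment. The labels give neither the sex of the mice nor whether each library came from 1 animal, so p-values measure the spread between these libraries.

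NAD carries electrons in metabolism and is also consumed as a substrate by sirtuins, poly(ADP-ribose) polymerases and Cd38. Cells build it from tryptophan by the kynurenine route, from nicotinic acid, or by recycling nicotinamide. The kidney, like the liver, can make NAD from tryptophan, and its proximal tubule is known to express many enzymes of the kynurenine route.

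The young libraries held 5093029 to 6355095 reads and the old libraries 4486406 to 5794960. Values are normalised read counts of transcript ends, in which 1 read was worth 0.819 to 1.18 normalised counts. All 14 proximal tubule markers were present. Their sum was 200089 to 233522 in young and 138077 to 190761 in old kidneys, lower in every old library. Most of it was Kap, an androgen-responsive gene, which fell from a mean of 159722 to 99735 (log2 fold change -0.69, limma adjusted p = 0.0020). Without Kap the sum was 56044 to 60085 in young and 52453 to 68020 in old kidneys. Of these 14 markers 4 rose and 7 fell, where 29.2% of all genes tested rose and 30.5% fell. The title prefixes of the libraries follow age, so any difference in preparation cannot be told apart from age. Mitochondrial transcripts took 27.0% to 29.7% of the reads in young and 35.8% to 38.1% in old libraries, and the mitochondrial ribosomal RNAs alone took 2.98% to 4.46% and 21.8% to 25.4%. B and plasma cell markers summed to 413 to 1350 in young and 2282 to 7882 in old libraries. The 5 adipocyte markers summed to 271 to 1456 in young and 56.9 to 1114 in old libraries, highest in young replicate 2, old replicate 3 and young replicate 3. Only Fabp4 among them was called, falling from a mean of 490 to 157 (log2 fold change -1.89, limma adjusted p = 0.00060). Without Fabp4 the sums ranged from 2.46 to 559 in young and from 2.80 to 690 in old libraries. Those were highest in old replicate 3, young replicate 2 and old replicate 1. The part of the B and plasma cell markers in the results was not tested.

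Of the 10 genes, 9 reached 10 normalised counts in 4 or more libraries and were tested. Nadsyn1, Afmid and Qprt fell with age, and Kmo and Nmnat1 rose. The other 4 tested genes, Haao, Acmsd, Nampt and Naprt, did not pass the test. That makes 5 of 9 called (adjusted p under 0.05), or 55.6%, where 59.7% of all 12667 genes tested were called. In each direction, 3 of 9 fell where 30.5% of all genes fell, and 2 of 9 rose where 29.2% rose. With mitochondrial genes left out of the scaling, 3 of 10 tested were higher and 2 lower (35.3% and 24.9% over all genes). With the transcript length trend removed, 4 of 9 were higher and 2 lower (28.8% and 28.8% over all genes). In the fit given first, a call was about as frequent among these genes as in the whole table. With only genes of a mean of at least 100 tested, however, it was 2 of 6, where 72.5% of all genes were called. Over the 9 genes the median log2 fold change was 0.02, against -0.0027 over all genes tested. Their median absolute log2 fold change was 0.37, against 0.56. Calls with a change of at least 1.5-fold numbered 2 of 9, Nadsyn1 and Afmid, where 45.1% of all genes had one, and both were also past 2-fold, as were 23.9% of all genes. Because this is bulk RNA, fewer cells of a type and less RNA per cell cannot be told apart for any of these genes.

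**Figure D1:**
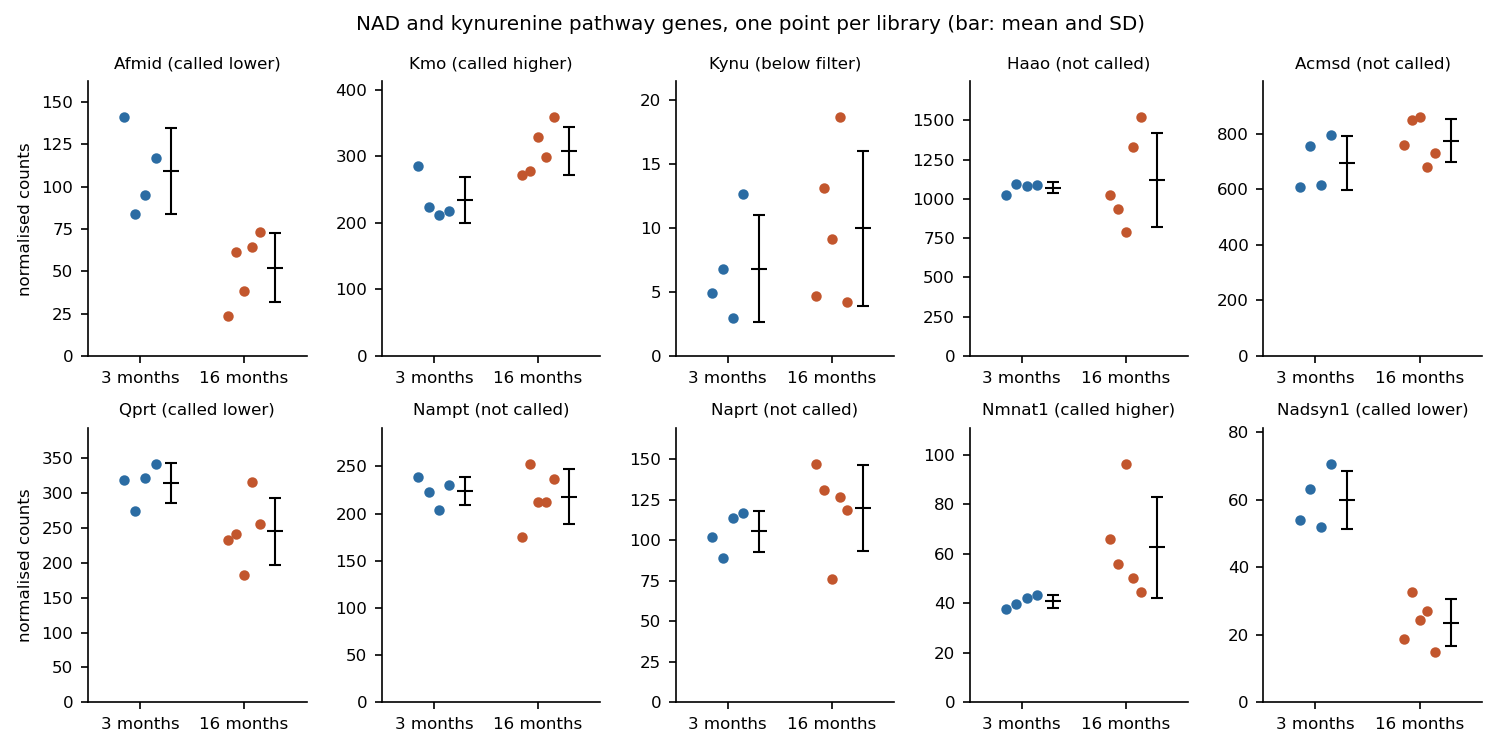
Normalised counts (vertical axis, linear, from 0) of the 10 genes at 3 and 16 months, with a point for each library and a bar for the mean and SD. The groups do not overlap for Afmid, Nadsyn1 and Nmnat1, and Haao spreads from 792 to 1519 in old kidneys but only from 1023 to 1092 in young ones.

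**Figure D2:**
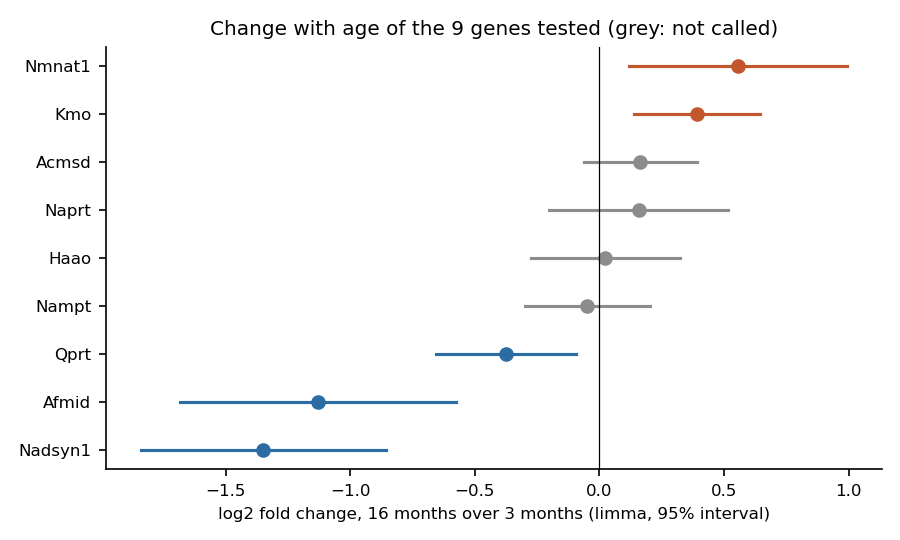
Log2 fold change of the 9 tested genes at 16 over 3 months (horizontal axis) with 95% intervals from limma, coloured where called and grey where not. Nadsyn1 and Afmid lie at -1.35 and -1.13, and the intervals of Haao, Acmsd, Nampt and Naprt cross 0.

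The final step of NAD synthesis from nicotinic acid and from tryptophan is carried out by Nadsyn1, the glutamine-dependent NAD synthetase. Its transcript stood at 54.1, 63.2, 52.0 and 70.6 normalised counts in the young libraries and at 18.9, 32.8, 24.3, 27.1 and 14.9 in the old ones. Every old library was below every young one. The mean fell from 59.9 ± 8.61 (SD, n = 4) to 23.6 ± 7.01 (SD, n = 5), a log2 fold change of -1.35 (SE 0.23, 95% interval -1.84 to -0.86, limma adjusted p = 7.01e-05). Among all genes tested, the groups failed to overlap in 49.0%, and among the 9 genes here in 3. Nadsyn1 lies at chr7:143795584-143822849 on the minus strand (GRCm38, GENCODE vM21), shares no 50-base stretch with another gene, and kept its call in all 22 alternatives in which it was tested.

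Afmid, the kynurenine formamidase that releases kynurenine from N-formylkynurenine, had the next largest fall. Its values were 140.9, 83.6, 95.1 and 116.8 in young and 23.6, 61.3, 38.5, 64.4 and 73.2 in old kidneys. All old values lay below the lowest young value, with old replicates 1 and 3 lowest. The log2 fold change was -1.13 (SE 0.26, 95% interval -1.68 to -0.58, limma adjusted p = 0.0012). Afmid lies at chr11:117825924-117839908 on the plus strand, and 62.5% of its 50-base stretches are shared with Gm20708, an overlapping gene on the same strand, so its count is uncertain. Exons of Tk1 also overlap it on the opposite strand, where the counting used strand.

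Kmo hydroxylates kynurenine in the outer mitochondrial membrane. Young kidneys held 285.8, 224.5, 211.8 and 217.3 normalised counts, and old kidneys 272.3, 277.8, 329.6, 299.4 and 358.6. Young replicate 1 was inside the old range, so the groups overlapped, and 3 of the 5 old libraries were above every young one. Kmo rose by 0.39 on the log2 scale (SE 0.12, 95% interval 0.14 to 0.64, limma adjusted p = 0.0093). Leaving out young replicates 2 and 3 and old replicate 3, which hold the most adipocyte marker signal when Fabp4 is included, gave 0.27 and an adjusted p of 0.208.

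Kynu, kynureninase, cleaves kynurenine and 3-hydroxykynurenine. It was below the filter, with 3 to 20 reads per library and at least 10 normalised counts in only 3 libraries. Its values were 4.91, 6.80, 2.94 and 12.7 in young and 4.71, 13.1, 9.13, 18.7 and 4.24 in old kidneys. These ranges overlap widely. Without the filter the log2 fold change was 0.45 (95% interval -0.57 to 1.47, limma adjusted p = 0.44), an interval that spans both directions.

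Haao opens the ring of 3-hydroxyanthranilate and so makes the intermediate that Acmsd acts on or that forms quinolinate, the substrate of Qprt. Its values were close together in young kidneys, at 1022.9, 1092.1, 1083.4 and 1090.0, and spread in old ones, at 1021.9, 937.5, 792.0, 1330.2 and 1519.1. Old replicates 4 and 5 were above the young range and old replicates 1, 2 and 3 below it. The means were 1072 ± 33.0 (SD, n = 4) and 1120 ± 297 (SD, n = 5), and the log2 fold change of 0.02 (SE 0.14, limma adjusted p = 0.899) turned negative with scaling to the table total (-0.03) and without old replicate 4 (-0.05) or old replicate 5 (-0.10).

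Acmsd, the decarboxylase that diverts this intermediate away from NAD towards the glutarate pathway, was at 607.7, 756.9, 615.7 and 795.8 in young and 759.1, 847.8, 859.0, 679.1 and 732.0 in old kidneys. Old replicates 2 and 3 were above every young value. The log2 fold change was 0.16 (SE 0.11, 95% interval -0.06 to 0.39, limma adjusted p = 0.199). With mitochondrial genes left out of the scaling it was 0.31 (adjusted p = 0.0285), a setting that moved the median of all genes by 0.14, and with a transcript length trend removed 0.32 (adjusted p = 0.0149).

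Qprt converts quinolinate, formed from the same intermediate, to nicotinate mononucleotide. Its young values were 318.6, 274.0, 321.6 and 341.3 and its old values 232.2, 240.7, 181.5, 315.3 and 254.6. Old replicate 4 lay within the young range, and the other 4 old libraries lay below it. Qprt fell by 0.37 on the log2 scale (SE 0.13, 95% interval -0.66 to -0.09, limma adjusted p = 0.0225). The call was lost without young replicate 1 (adjusted p = 0.0523), young replicate 3 (0.0558), young replicate 4 (0.0693) or old replicate 3 (0.0613). It was also lost with mitochondrial genes left out of the scaling (-0.23, adjusted p = 0.120) and with the length trend removed (-0.14, adjusted p = 0.380).

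Nampt, which makes nicotinamide mononucleotide from nicotinamide and is the rate-limiting enzyme of salvage, was measured at 239.1, 222.5, 203.9 and 229.9 in young and 175.6, 252.7, 212.0, 211.7 and 236.6 in old kidneys. The ranges overlapped, with old replicate 1 below and old replicate 2 above all young libraries. The log2 fold change was -0.05 (95% interval -0.30 to 0.20, limma adjusted p = 0.747). It turned positive with mitochondrial genes left out of the scaling (0.09), without old replicate 1 (0.03) and without old replicates 1 and 3 and young replicate 2 (0.06).

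Naprt, the entry enzyme for nicotinic acid, was at 102.4, 89.4, 113.7 and 116.8 in young and 147.3, 131.3, 76.1, 126.9 and 118.8 in old kidneys. In 4 of the 5 old libraries it exceeded every young value, and old replicate 3 was below them all. The log2 fold change was 0.16 (95% interval -0.20 to 0.52, limma adjusted p = 0.441). With the length trend removed it was 0.41 (adjusted p = 0.0412). Naprt shares 12.3% of its 50-base stretches with Eef1d, which overlaps it on the same strand.

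Nmnat1, the nuclear adenylyltransferase that joins mononucleotides to the adenylate of ATP, rose. Its values were 37.7, 39.8, 42.2 and 43.5 in young and 66.0, 55.8, 96.3, 50.4 and 44.6 in old kidneys. All old values were above all young ones, by a narrow margin in old replicate 5 and furthest in old replicate 3. Old replicate 3 was also the lowest for Qprt. Its collecting duct markers summed to 3379, against 1021 to 1535 in the other old libraries. That came mainly from Aqp2 (2267 against 334 to 694) and Fxyd4 (443 against 87.0 to 159). Aqp3 was slightly above the other old libraries (220 against 132 to 206), and Hsd11b2 (372) and Scnn1g (77.1) lay within their range. Fibroblast markers summed to 1404 in old replicate 3, against 831 to 1069. The part of these markers in the results was not tested. For Nmnat1 the log2 fold change was 0.56 (SE 0.21, 95% interval 0.12 to 0.99, limma adjusted p = 0.0281). The adjusted p was 0.0686 without young replicate 1, 0.0570 without young replicate 2, 0.0550 without old replicate 1 and 0.0855 without old replicate 3 (where the log2 fold change was 0.39), so the call was lost each time. Without the 3 libraries highest in adipocyte markers it was 0.219 with Fabp4 among the markers and 0.293 without Fabp4.

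To show the sequence upstream of genes with different patterns, the 250 bases before the RefSeq start are given for Nadsyn1 (the largest fall), Kmo (a rise) and Haao (no call), 5′ to 3′ on the gene's strand (RefSeq, GRCm38.p6). Capitals mark matches, on either strand, to GGTCAAAG (an HNF4-type element), GTTAAT (an HNF1-type element) or GGGCGG (a GC box). The Kmo and Haao windows lie inside the GENCODE gene, downstream of its outermost start.
Nadsyn1, chr7:143822853-143823102 (minus strand): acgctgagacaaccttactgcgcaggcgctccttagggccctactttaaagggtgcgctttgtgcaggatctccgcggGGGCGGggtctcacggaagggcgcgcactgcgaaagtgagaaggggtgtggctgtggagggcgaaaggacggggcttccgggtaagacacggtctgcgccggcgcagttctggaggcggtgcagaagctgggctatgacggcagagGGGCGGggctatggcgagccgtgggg
Kmo, chr1:175631943-175632192 (plus strand): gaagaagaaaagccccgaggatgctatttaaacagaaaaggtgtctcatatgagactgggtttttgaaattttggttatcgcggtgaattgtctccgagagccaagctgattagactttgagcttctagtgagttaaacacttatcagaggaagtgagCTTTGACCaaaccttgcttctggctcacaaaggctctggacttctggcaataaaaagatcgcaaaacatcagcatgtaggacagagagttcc
Haao, chr17:83846791-83847040 (minus strand): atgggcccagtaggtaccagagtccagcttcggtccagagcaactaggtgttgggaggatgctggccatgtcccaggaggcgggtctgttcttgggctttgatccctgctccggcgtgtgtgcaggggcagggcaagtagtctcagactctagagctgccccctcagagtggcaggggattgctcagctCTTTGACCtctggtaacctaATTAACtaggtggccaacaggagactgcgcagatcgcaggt

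RefSeq windows were found for 8 of the 10 genes, and Naprt and Kynu had none. GGTCAAAG occurred in Kmo, 92 bases before the start, and in Haao, 61 bases before it, and in 0.834% of all 32851 windows. GTTAAT occurred in Haao, 41 bases before the start, and in 6.43% of all windows. CAAAGTCCA, a further HNF4 motif, was in none of the 8 and in 0.384% of all windows. GGGCGG occurred in the windows of Nampt, Nadsyn1, Afmid and Nmnat1 and in 32.7% of all windows. The GC content ran from 42.8% (Kmo) and 43.2% (Acmsd) to 69.2% (Nmnat1) and 75.6% (Nampt). The median over all 32851 windows was 52.4%. The Kmo and Haao windows held the same HNF4-type match, while Kmo rose and Haao was not called. Hnf4a itself, the nuclear receptor of the proximal tubule, fell from 1863 ± 153 (SD, n = 4) to 981 ± 112 (SD, n = 5), a log2 fold change of -0.93 (SE 0.10, limma adjusted p = 2.39e-07). A match is a description of letters and does not show binding, and any part of Hnf4a in these values was not tested.

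The 5 ratios within a library, taken on log2(normalised count + 1), compared competing or parallel steps. None passed an exact permutation test adjusted over the 5, whose smallest possible two-sided p was 0.0159. A ratio reaching that p alone would have an adjusted p of 0.0794, so no single ratio could pass 0.05 in this design. The log2 ratio of Acmsd over Qprt, the competing fates of the Haao product, was 0.93, 1.46, 0.93 and 1.22 in young and 1.70, 1.81, 2.24, 1.10 and 1.52 in old libraries. In 4 of the 5 old libraries it was above the young maximum, and the difference of means was 0.54 (exact permutation p = 0.0635, adjusted 0.317). Qprt over Nampt, tryptophan against salvage, differed by -0.33 (exact permutation p = 0.127, adjusted 0.317). Naprt over Nampt differed by 0.21 and Acmsd over Haao by 0.14 (exact permutation, adjusted p = 0.754 for both), and Kynu over Kmo by 0.06 (adjusted 0.921). The last of these turned to -0.07 with a pseudocount of 5, and Acmsd over Haao to -0.05 without either set of adipocyte-rich libraries.

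**Figure D3:**
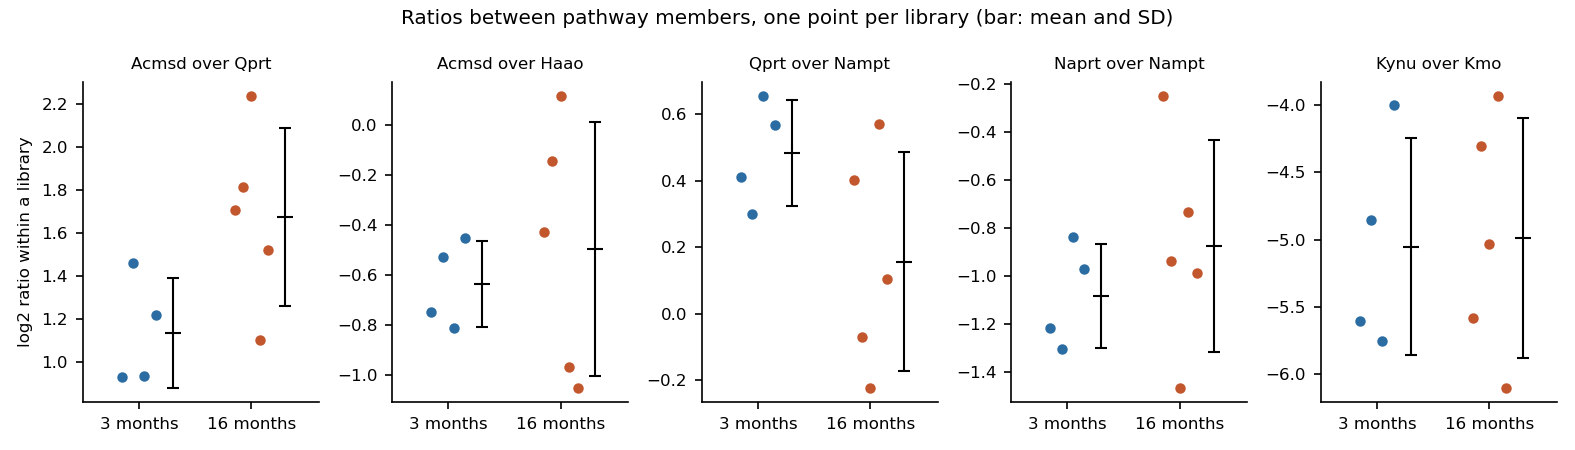
Log2 ratio of pairs of genes within each library (vertical axis, a scale for each panel) at 3 and 16 months, with a point for each library and a bar for the mean and SD. Acmsd over Qprt lies above the young maximum of 1.46 in 4 of the 5 old libraries, and all 5 ratios overlap between the ages.

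The wider pathway, a list of 70 genes of tryptophan and NAD metabolism, had 59 genes in the table and 58 tested. Of these, 10 rose and 30 fell (29.2% and 30.5% over all genes). That made 69.0% called (59.7% over all genes), and the median log2 fold change was -0.44 (-0.0027 over all genes). Without Sirt4, which passed the filter through the young libraries alone, 29 of 57 fell (30.5% over all genes). With mitochondrial genes left out of the scaling 15 rose and 28 fell, where 35.3% and 24.9% of all genes did. With only genes of a mean of at least 100 tested, 25 of 34 were called (73.5%), where 72.5% of all genes were. The higher share of calls was not seen there, although 5 rose and 20 fell, where 36.1% and 36.4% of all genes did. Among genes that make kynurenine or draw it into side branches, 3 of 5 fell and none rose (30.5% and 29.2% over all genes). Aadat, an aminotransferase that turns kynurenine into kynurenic acid, was at 673, 644, 648 and 650 in young and 169, 258, 148, 153 and 240 in old kidneys. The groups were far apart, with a log2 fold change of -1.79 (SE 0.15, limma adjusted p = 8.73e-09). Kyat1, which makes the same product, fell by 0.88, and Ido2, a tryptophan dioxygenase, fell by 1.14. The dioxygenase genes Tdo2 and Ido1 were not among the genes in the table.

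**Figure D4:**
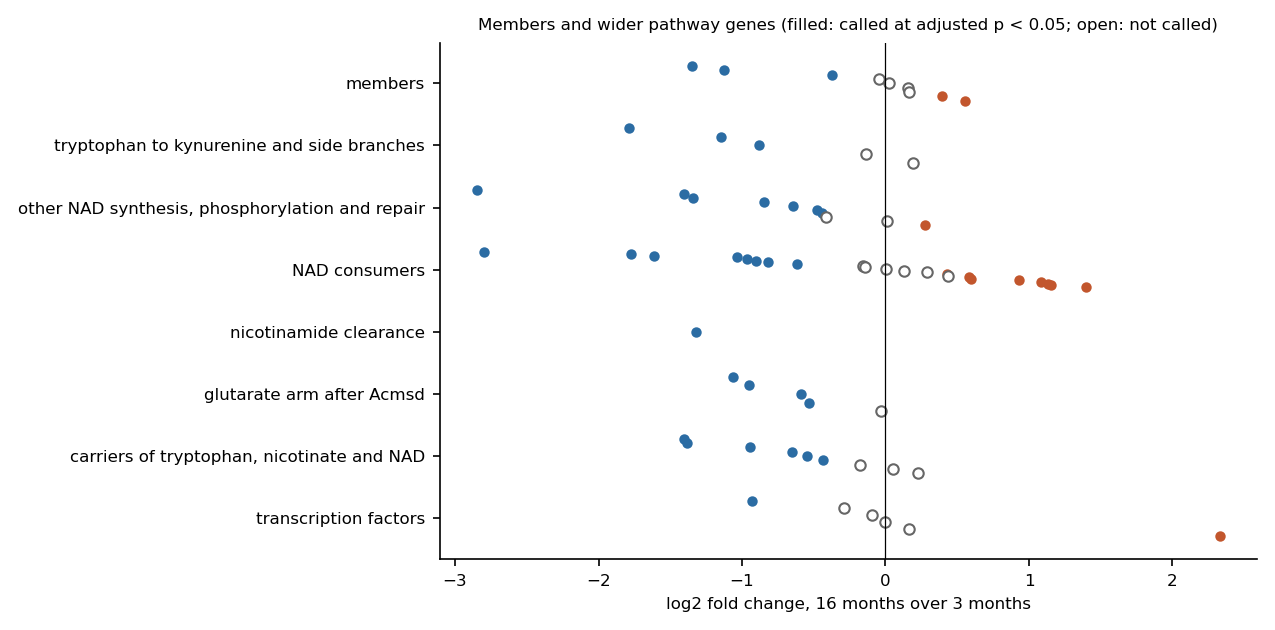
Log2 fold change at 16 over 3 months (horizontal axis) of the 9 genes described here, labelled members, and of 58 wider pathway genes by list (vertical axis). Filled points were called and open points were not; the NAD consumers split into 8 that rose and 8 that fell, Sirt4 among them, and the other wider lists hold 2 that rose, Naxe and Ppara.

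Other genes of NAD synthesis, phosphorylation and repair fell in 7 of 10 and rose in 1 (30.5% and 29.2% over all genes). Nmnat3, a relative of Nmnat1 assigned to mitochondria, was at 78.6, 118.5, 111.8 and 114.1 in young and 8.25, 20.8, 15.2, 14.0 and 12.7 in old kidneys. It fell by 2.85 on the log2 scale (SE 0.24, limma adjusted p = 1.41e-08), while Nmnat1 rose. Pnp, a nucleoside phosphorylase, fell by 1.41, although it shares 25.2% of its 50-base stretches with Gm49342. Nadk2, the mitochondrial NAD kinase, fell by 1.34. Naxe, which takes part in the repair of hydrated NADH, rose by 0.27 (limma adjusted p = 0.0249). That call was lost without young replicate 2 (0.0889), old replicate 1 (0.0530) or old replicate 2 (0.0565). Scaling to the table total and leaving out either set of adipocyte-rich libraries also lost it, which made 6 alternatives. Over all alternatives its log2 fold change ran from 0.22 to 0.67.

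Of 22 NAD consumers, 8 were called higher and 8 lower, as were 29.2% and 30.5% of all genes. The split depended on the scaling, since with mitochondrial genes left out 11 were higher and 7 lower (35.3% and 24.9% of all genes). Among the 8 lower is Sirt4, a mitochondrial sirtuin, with 26.2, 36.0, 35.3 and 33.5 in young and 4.71, 3.28, 3.04, 7.46 and 2.12 in old kidneys. It passed the filter through the young libraries alone, so it had to differ, and without it 7 of 21 consumers were lower (6 with mitochondrial genes left out of the scaling). Parp16 fell by 1.77, and Cd38, an NAD glycohydrolase of immune and other cells, had a log2 fold change of -1.62 (limma adjusted p = 0.0013). Both were near the filter in old kidneys, at 7.43 to 18.6 for Parp16 and 3.73 to 14.9 for Cd38. Parp16 reached 10 in 4 young and 3 old libraries, and Cd38 in 4 young and 2 old ones, so the sizes of these falls are uncertain. Parp3 rose by 1.40, and Parp14 and Parp9 rose by 1.16 and 1.13. Macrophage markers summed to 1200 to 1396 in young and 1431 to 2027 in old libraries, with 4 of 9 higher and 1 lower (29.2% and 30.5% over all genes), and without Cd74, which B cells also express, to 631 to 691 and 660 to 874, which overlap. Their part in these values was not tested. Sirt1 was not called (0.29, limma adjusted p = 0.135), nor was Parp1 (-0.15, adjusted p = 0.350), and Sirt1 was called with mitochondrial genes left out of the scaling (0.43, adjusted p = 0.0307).

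On the glutarate arm that follows Acmsd, 4 of 5 genes fell and none rose (30.5% and 29.2% over all genes). Gcdh, glutaryl-CoA dehydrogenase, was at 782, 823, 748 and 750 in young and 397, 417, 362, 458 and 378 in old kidneys, and its log2 fold change was -0.95 (SE 0.10, limma adjusted p = 1.13e-07). Dhtkd1 fell by 1.07 and Dlst by 0.59, the latter a subunit that also serves the 2-oxoglutarate dehydrogenase of the citric acid cycle. Carriers fell in 6 of 9 and none rose (30.5% and 29.2% over all genes). Among those that fell were Slc7a8 (-1.40), Slc22a13 (-1.38) and Slc5a8 (-0.94), a monocarboxylate carrier. Slc22a13, a nicotinate and urate transporter, shares 36.0% of its 50-base stretches with the pseudogene Slc22a13b-ps. With mitochondrial genes left out of the scaling 5 carriers fell and 1 rose, where 24.9% and 35.3% of all genes did. Cyp2e1, the only gene of nicotinamide clearance in the table, fell by 1.32, and Nnmt was not among the genes in the table. Of 6 transcription factors, Ppara, a fatty acid sensor, rose by 2.33 and Hnf4a fell, as given above.

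Over the 9 libraries, the tested gene whose centred log2 values were closest to those of Nadsyn1 was Apmap, with a root mean square difference of 0.13. For Afmid it was Nup93 (0.25), and for Nmnat1 it was Cavin1 (0.0857), a component of caveolae.

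**Figure D5:**
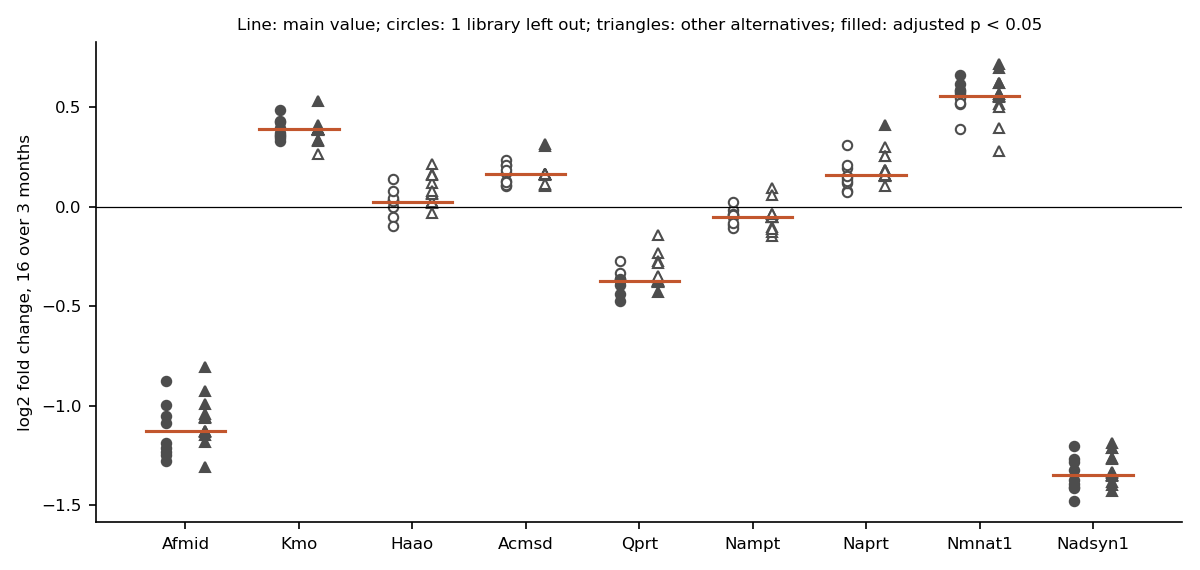
Log2 fold change (vertical axis) of the 9 tested genes at 16 over 3 months; the line is the reported value, circles leave out 1 library, triangles are other alternatives, and filled symbols had an adjusted p under 0.05. All symbols of Nadsyn1 and Afmid are filled, while Qprt and Nmnat1 hold open ones.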

How the data were processed

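Kidney RNA in 4 young and 5 old libraries was sequenced from transcript ends as stranded single reads (an oligo(dT)-primed kit, whose version differs between the labels and the study's methods). The submitters' processing notes name FastQC 0.11.7, TopHat2 2.0.10, Bowtie 1.0.0, SAMtools 0.1.19 and HTSeq 0.6.1, and GRCm39. The authors normalised the gene counts with DESeq and deposited that signal, on the scale of counts. In each library 100% of the values were whole multiples (within 0.01 reads) of the smallest one, so reads could be recovered. The lowest gene mean was 4.49, so rarer genes had been left out by a rule not given in the sources used here. A floor of 3 reads was 4.72e-05% to 6.69e-05% of the table reads; it covers counting error only, as the reads carry no molecular identifiers.

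Groups follow the age in the labels, and libraries are numbered in listed order. Old was compared with young by limma 3.58.1 (lmFit, eBayes with trend, R 4.3.3) on log2(normalised count + 1), which understates changes of low genes, for genes with at least 10 in at least 4 libraries. Benjamini-Hochberg adjustment ran over all 12667 genes, and calls needed an adjusted p under 0.05. Ratios were tested by two-sided exact permutation (scipy 1.17.1). Alternatives were pseudocounts of 0.1 and 5, no filter, a mean of at least 100, TMM, table totals, mitochondrial genes left out, robust eBayes, edgeR 4.0.16 and DESeq2 1.42.0 on recovered reads, and each library left out. After the data were seen, lowess trends on transcript length or GC were removed and the 3 libraries richest in adipocyte markers left out. The latter was first run with 5 markers. After its outcome was seen it was rerun without Fabp4, which endothelial cells also express, and both are given.

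The genes and all lists were chosen with earlier results of these data known. All 10 genes are named, with up to 3 called genes at each end of each wider list, 7 genes named whatever their result (Nnmt, Cd38, Tdo2, Ido1, Sirt1, Parp1 and Hnf4a), and 1 closest gene for the 3 genes of largest change. Positions and shared sequence come from GENCODE vM21 on GRCm38, not the authors' build, with 12856 of 13081 genes (98.3%) matched by symbol. Scripts were tested on simulated data.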

Additional observations from a re-analysis of the deposited data

Results flagged for a closer look

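Among 78 groups of libraries examined for a library far from the rest, 3 held one, where chance would give 3.9. On the log2(normalised count + 1) scale, Haao was 9.99982 in young replicate 1, below 10.1 in the other young libraries. Nmnat3 was 6.31505 in young replicate 1, where the others lay between 6.82 and 6.90. Parp1 was 6.48224 in old replicate 1, where the others lay between 6.90 and 7.05.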

How the results depend on the processing

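No paired analysis was possible because the library titles carry no replicate number shared between the ages. Nadsyn1 and Afmid kept direction and call in all 22 alternatives in which each was tested, and Kmo in 22 of 23. The number of the 10 genes called, 5, was 2 of 6 tested with a mean of at least 100 (Kmo and Qprt, where 72.5% of all genes were called), 2 of 9 without the 3 libraries richest in 5 adipocyte markers (46.2% of all genes), 3 of 9 when those libraries were chosen without Fabp4 (51.7% of all genes), and 3 to 5 with 1 library left out (3 without young replicate 1 or old replicate 3, where 54.7% and 59.3% of all genes were called). The number of wider genes called, 40, was 25 of 34 tested with a mean of at least 100 (73.5%, where 72.5% of all genes were called). With 1 library left out 37 to 41 were called (64.9% to 70.7%), where 54.3% to 60.5% of all genes were. Qprt lost its call in 9 and Nmnat1 in 7 alternatives, counting both adipocyte choices.

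Reversals were of small values without a call. Haao was -0.0296 with table totals and -0.0964 to 0.14 with 1 library left out, negative without old replicate 4 or 5. Nampt was 0.0932 with mitochondrial genes left out, -0.10 to 0.0260 with 1 library left out (highest without old replicate 1) and 0.0580 without the adipocyte-rich libraries chosen without Fabp4. Kynu over Kmo was -0.0749 with a pseudocount of 5, -0.18 without the libraries chosen by 5 markers, and -0.20 to 0.41 with 1 library left out. Acmsd over Haao was -0.0468 and -0.0494 without the adipocyte-rich libraries under either choice and -0.0121 to 0.28 with 1 library left out. The causes were not tested. Leaving mitochondrial genes out raised the share of calls that were higher from 48.9% to 58.6%. edgeR called 7649 and DESeq2 7532 genes, against 7568. Kynu had 3 to 20 reads per library, below the filter.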
